A study of Mus musculus with 6 samples.

Results

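The nuclear-coded genes of the mitochondrial respiratory chain were compared between wild-type (WT) and Patz1 knockout (KO) mouse embryonic stem cells (ESCs). The members were all gene symbols that begin with Ndufa, Ndufb, Ndufc, Ndufs, Ndufv, Uqcr, Atp5 or Cox followed by a digit from 4 to 8, together with Sdha, Sdhb, Sdhc, Sdhd and Cyc1. This rule uses names only and gave 93 of the 23420 gene symbols counted. Of these, 75 code for structural subunits: 36 of complex I, 4 of complex II, 9 of complex III, 11 of complex IV and 15 of complex V. The other members are 8 tissue isoforms of complex IV subunits and 10 assembly or other factors. All samples were cells of the E14 line, cultured in LIF with the MEK inhibitor PD0325901 and the GSK3 inhibitor CHIR99021, and total RNA depleted of ribosomal RNA was sequenced. The WT group held 3 libraries without an edit, and the KO group held 3 libraries with the genotype Patz1 -/-. Patz1 codes for a zinc finger protein studied there as an insulation factor. It was disrupted with CRISPR/Cas9 and single clones were expanded, and how many clones stand behind the 3 KO libraries is not given in the sources used here. The study describes the libraries of a group as biological replicates, and the labels do not say whether they came from separate cultures, so the p-values measure the spread between these libraries.

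The respiratory chain sits in the inner mitochondrial membrane. Complex I takes electrons from NADH and complex II, which is also the succinate dehydrogenase of the TCA cycle, takes them from succinate. Complex III passes them from ubiquinol to cytochrome c, complex IV (cytochrome c oxidase) passes them on to oxygen, and complex V, the ATP synthase, makes ATP from the proton gradient that complexes I, III and IV build. Complex II is coded wholly in the nucleus. The others also hold subunits coded by mitochondrial DNA, none of which are among the symbols counted here. ESCs in this medium are known to use both glycolysis and respiration.

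The 6 libraries held 11040756 to 47721070 counts, and the 93 members took 1.30% to 1.84% of them. Replicate 3 of each genotype was the shallow library, with 12.5% and 14.4% of its counts on Rn45s, a ribosomal RNA precursor, against 1.79% to 3.03% in the other 4, and with 5.31% (WT) and 4.57% (KO) on Lars2. Values below are normalized read counts, that is counts divided by the size factor of the library. Patz1 itself stood at 1838, 1983 and 1843 in WT and at 853, 862 and 862 in KO, which is -1.14 ± 0.10 as log2 fold change of KO over WT (SE, adjusted p = 1.575e-26, DESeq2 Wald test). The ESC markers were abundant in every library, and Pou5f1 averaged 32180 in WT and 35440 in KO. The 6 ESC markers summed to 97030 to 101700 in WT and to 105600 to 108600 in KO, and 0 were called (with the replicate block explained below, 2). Markers of other cells were mostly low. The 6 fibroblast markers summed to 85.2 to 110 in WT and 134 to 169 in KO, with 1 called higher (Thy1, mean 72.5 and 130). Most of that sum came from Thy1. By their means, Col1a1 (11.5 and 9.16), Col1a2 (10.8 and 6.49), Dcn (1.29 and 0) and Postn (0.71 and 0) were lower in KO. Col3a1 was near 0 (0.19 and 1.28). The 4 trophoblast markers summed to 732 to 935 and 556 to 795, with Cdx2 lower (113 and 68.1), Tpbpa at 0 and most of the sum from Eomes (701 and 615), and the 5 muscle markers to 98.6 to 114 and 39.7 to 59.3, with Myh6 lower (85.8 and 30.4). None of 4 primitive endoderm and 4 testis markers was called. Tnp1 was at 0, and Sycp3 averaged 239.5 in WT and 281 in KO. The part of these markers in the results on the respiratory genes was not tested.

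The respiratory genes were among the abundant messages of these cells. To compare genes, normalized counts were divided by the length of a representative transcript, and all 74 structural subunits with counts were above the median of all genes by that scale (248 per kb). Of these, 66 were in the top 10% of the 11441 genes that averaged 50 or more normalized counts and had a known length. The median level per kb over the subunits of a complex was highest in complex IV, at 11850 ± 999.5 in WT and 14220 ± 331 in KO (SD over 3 libraries). Complex V followed with 11020 ± 852 and 12330 ± 652, and complex III with 9335 ± 2270 and 8626 ± 1969. These 3 neighbours in the order overlapped in WT within their SD, and in KO complexes V and III were below complex IV by more than their SD. Complex I had 3238 ± 260 and 3282 ± 400 and complex II 2268 ± 301 and 2470 ± 182, and both were below complexes III to V in every library of both genotypes.

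**Figure D1:**
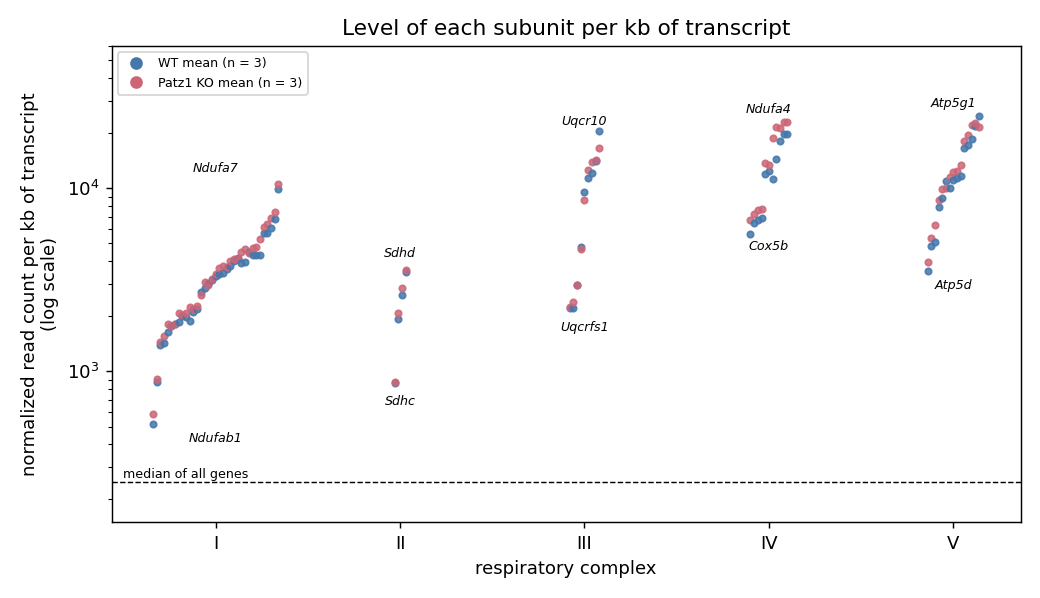
Level of each structural subunit in normalized read counts per kb of transcript (log axis), by respiratory complex; each gene has 1 point for the WT mean and 1 for the KO mean (n = 3 libraries each), and the dashed line is the median of all genes at 248 per kb. All 74 subunits lie above that line, and the genes highest over the 6 libraries, Atp5g1, Atp5b, Ndufa4 and Cox4i1, belong to complexes IV and V.

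Within a complex the subunits were not even, by levels averaged over the 6 libraries. In complex I, Ndufa7 and Ndufa11, accessory subunits, had 10230 and 7086 counts per kb, while the acyl carrier protein Ndufab1 had 552 and Ndufa10 had 894. In complex III the small subunits Uqcr10 (18590) and Uqcrb (14220) were highest, and the Rieske iron-sulfur protein Uqcrfs1 (2231) and the core protein Uqcrc2 (2307) lowest. In complex IV the order ran from Ndufa4 (21490), now counted as a subunit of this complex, and Cox4i1 (21410) down to Cox5a (6840) and Cox5b (6169). In complex V the c-ring gene Atp5g1 (23220) and the catalytic beta subunit Atp5b (22310) were highest, and Atp5f1 (5099) and Atp5d (3752) lowest. In the replicate 3 libraries Atp5k, of the membrane part, was above Atp5g1, with 22470 (WT) and 26950 (KO) per kb against 16810 and 16860. As a ratio of highest to lowest, the span was widest in complex I.

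A single structural subunit had no counts. Ndufs5, an accessory subunit of complex I on chr4:123712710-123718202 (GRCm38), was listed at 0 in all 6 libraries, whereas the other 74 averaged 782 to 42750 normalized counts over the 6 libraries. Its representative transcript has 1 annotated pseudogene copy with 99.4% identity. Whether that copy bears on the value of 0 was not tested. Ndufs5 was singled out after its values were seen.

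Between the genotypes, 3 of the 90 members tested passed an adjusted p of 0.05, and all 3 were higher in KO: Cox8a and Cox7b of complex IV, and Ndufaf4, which helps to assemble complex I. That is 3.33% of the members, against 7.49% of the 15309 genes tested, of which 2.7% were higher and 4.78% lower. By an unadjusted p under 0.05, 14 of the 90 passed, and the count was 8 without WT replicate 2 or KO replicate 2 and 24 without KO replicate 3. Over the 19404 genes with a count, 2700 passed by that measure. These genes include low ones that have no adjusted p, so the 2 shares have unlike bases. Of the 74 structural subunits with counts, all of which averaged 50 or more, 65 had a log2 fold change above 0 and the median was 0.13, against 54% of all genes by the same filter and a median of 0.02. Without WT replicate 3 that majority was smaller, with 47 of 74 subunits above 0 and a median of 0.05, and 20 of 35 in complex I and 1 of 4 in complex II. Without KO replicate 2 it was 54 of 74, with a median of 0.08. KO libraries lay wholly above WT libraries for 16 of these 74 (21.6%, against 11.8% of all genes tested) and wholly below for 0 (against 13.8%).

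Libraries with the same replicate number deviated together, so the test was also run with the replicate number as a block. Whether libraries with different numbers did so too was not tested, and replicate 3 was the shallow library in both genotypes. The calls with the block rest on that pairing. With the block, 22 of 89 members passed (24.7%, against 14.6% of the 14567 genes tested), 21 higher and 1 lower in KO. All 21 were higher in 3 of 3 pairs, and the 3 members called without the block were among them. The test with the block uses these same pairs, so that agreement is no separate evidence. By complex, the block called 8 of 11 subunits of complex IV, 6 of 15 of complex V, 5 of 35 of complex I, 2 of 9 of complex III and 0 of 4 of complex II. Members called only with the block are named below after their values were seen, except where another part of the naming rule covers them.

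**Figure D2:**
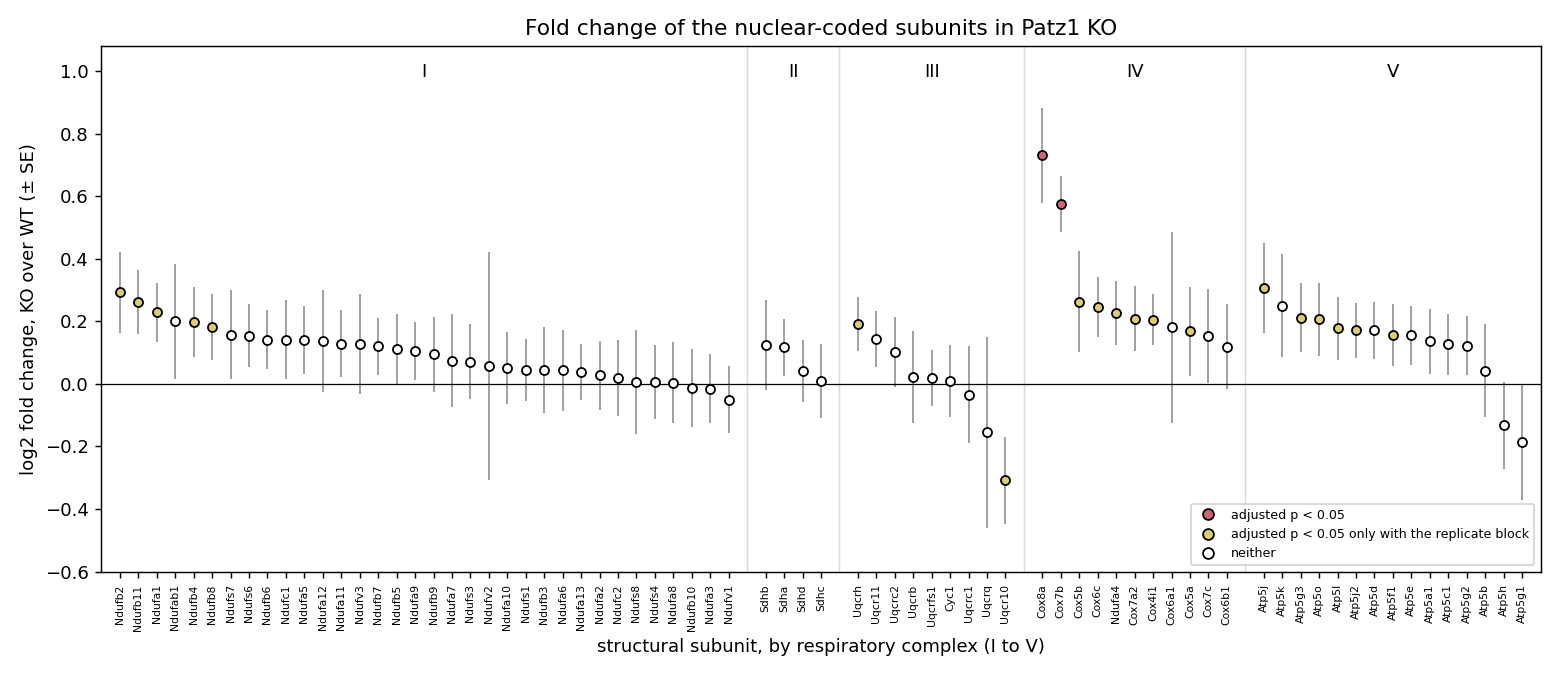
Log2 fold change of KO over WT (y axis, bars are the SE of the DESeq2 fit) for 73 of the 74 structural subunits with counts, ordered within complexes I to V; red points passed an adjusted p of 0.05, yellow points passed only with the replicate block. In complex IV all 11 points lie above 0, and Cox8a (0.73) and Cox7b (0.58) stand apart from the rest.

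Complex IV had the highest median log2 fold change of the 5 complexes, and the difference between complexes was not tested. The median of its 11 subunits was 0.21, and all 11 were above 0 in each alternative except without KO replicate 3, where Cox6b1 was not. The median over its subunits of the deviation from each gene's mean (log2 scale) was -0.02, -0.14 and -0.27 in WT replicates 1, 2 and 3 and 0.16, 0.19 and 0.01 in KO. The KO libraries were thus all above the WT libraries, although replicate 3 was the lowest of each genotype. Over all genes the same measure ran from -0.02 to 0.02. With the trend of each library on transcript length removed, the median of complex IV was 0.15.

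**Figure D3:**
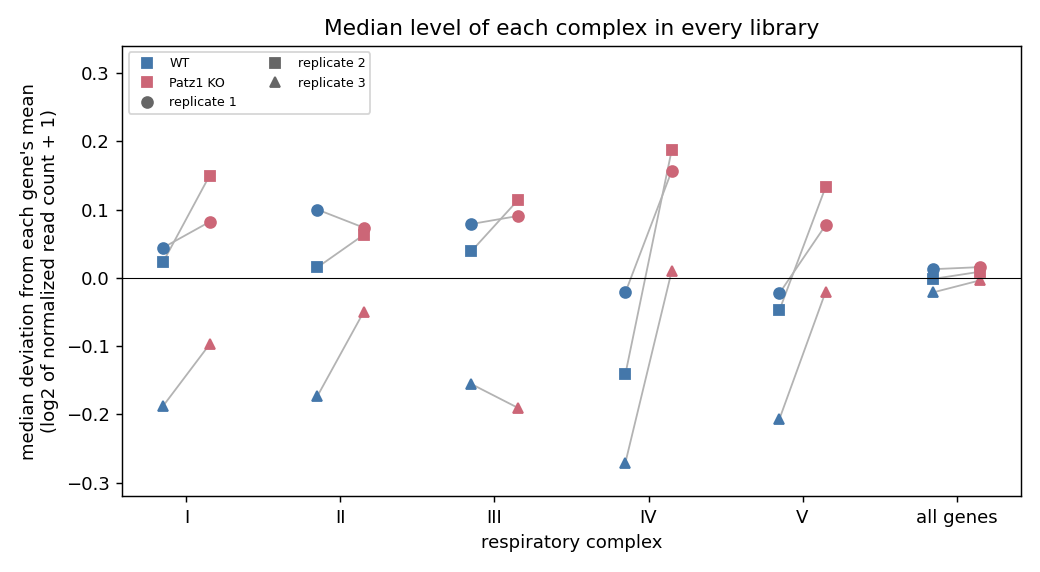
Median over the subunits of each complex of the deviation of log2(normalized read count + 1) from the mean of each gene, in every library; grey lines join libraries with the same replicate number, and all genes are shown on the right. Complex IV has its 3 KO libraries (0.01 to 0.19) above its 3 WT libraries (-0.27 to -0.02), and replicate 3 is lowest in each genotype for every complex.

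Cox8a codes for the small subunit VIII of cytochrome c oxidase in its widely expressed form and lies on chr19:7215153-7217616 (GRCm38, minus strand). Its normalized counts were 6044, 7150 and 5460 in WT and 11410, 11760 and 7780 in KO. Every KO library was above every WT library, although KO replicate 3 was well below the other KO libraries. In log2 terms KO exceeded WT by 0.73 ± 0.15 (adjusted p = 8.49e-05, DESeq2 Wald test), and with the block by 0.72 (adjusted p = 1.38e-21). Cox8a passed the threshold in each of the 17 alternatives, with adjusted p-values between 2.997e-23 and 0.0216. The sequence around its start is shown because this member had the largest change among those called; capitals mark matches to CCGGAAGT, the core letters bound by ETS factors such as GABPA, read here on the opposite strand (RefSeq, GRCm38.p6, chr19:7217567-7217866, minus strand, 250 bases before to 50 from the start on).
Cox8a promoter: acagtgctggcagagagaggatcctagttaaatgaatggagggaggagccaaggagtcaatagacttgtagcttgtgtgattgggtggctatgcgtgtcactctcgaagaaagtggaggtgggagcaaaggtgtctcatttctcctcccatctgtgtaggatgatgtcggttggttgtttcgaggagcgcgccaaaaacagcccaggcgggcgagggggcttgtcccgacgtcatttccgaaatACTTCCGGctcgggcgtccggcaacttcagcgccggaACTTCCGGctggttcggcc
These letters occur at -6 and at 32 from the start. They are held by 3.89% of all 32851 promoters of this length and by 5 of 78 promoters of the members (6.41%).

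The genes beside Cox8a were then read, a choice made after its values were seen. Within 100 kb it had 5 neighbours that averaged 50 or more normalized counts. Those in 1 run with it, with no other such gene between them, were higher in KO: Otub1, a deubiquitinase, by 0.72 ± 0.13 (log2, SE), Naa40, an acetyltransferase of histone N termini, by 0.60 ± 0.09, and Rcor2, a CoREST family corepressor, by 0.88 ± 0.10. Their adjusted p-values were 1.033e-06, 5.347e-09 and 2.544e-16. Rcor2 had 2060, 1962 and 1859 normalized counts in WT and 3855, 3430 and 3549 in KO, with no overlap. The genes on either side of this run did not pass, with -0.27 ± 0.29 for Macrod1 (adjusted p = 0.759) and 0.09 ± 0.13 for Mark2 (adjusted p = 0.858). The run of 4 genes with Cox8a spans chr19:7198202-7275225.

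**Figure D4:**
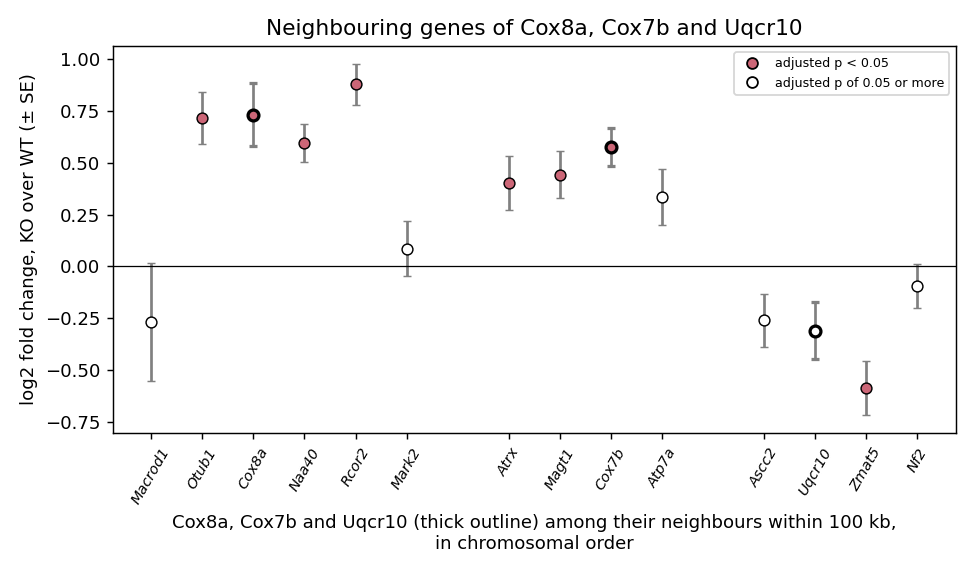
Log2 fold change of KO over WT (y axis, bars are the SE) for Cox8a, Cox7b and Uqcr10, drawn with a thick outline, and for the genes within 100 kb of each that averaged 50 or more normalized counts, in chromosomal order; red points passed an adjusted p of 0.05. Cox8a stands in a run of 4 genes at 0.60 to 0.88 between Macrod1 (-0.27) and Mark2 (0.09), and all 3 neighbours of Cox7b are above 0 while all 3 of Uqcr10 are below.

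Cox7b, the gene of subunit VIIb, lies on chrX:106015700-106022450 (GRCm38, plus strand). Its normalized counts were 15070, 14560 and 13850 in WT and 21930, 22620 and 20250 in KO, and the groups did not overlap. KO exceeded WT by 0.58 ± 0.09 on the log2 scale (adjusted p = 1.994e-08, DESeq2 Wald test). Genes of the same stretch of the X chromosome, from Pin4 to its end, moved with it. Of 235 such genes tested, 98 were higher and 3 lower in KO, and the median log2 fold change of the 177 averaging 50 or more normalized counts was 0.44, against 0.04 for X genes before Pin4. When that stretch and chromosome 11 were each set to the same median in every library, Cox7b had a log2 fold change of 0.15 (adjusted p = 0.692, and 0.0568 with the block) and was no longer called. Its neighbours Magt1 (0.44, adjusted p = 0.00218) and Atrx (0.40, adjusted p = 0.0295) were called too, and Atp7a had 0.33 (adjusted p = 0.123). The start of Cox7b is printed for contrast, with no match to any of the 4 motifs searched (RefSeq, GRCm38.p6, chrX:106015450-106015749, plus strand).
Cox7b promoter: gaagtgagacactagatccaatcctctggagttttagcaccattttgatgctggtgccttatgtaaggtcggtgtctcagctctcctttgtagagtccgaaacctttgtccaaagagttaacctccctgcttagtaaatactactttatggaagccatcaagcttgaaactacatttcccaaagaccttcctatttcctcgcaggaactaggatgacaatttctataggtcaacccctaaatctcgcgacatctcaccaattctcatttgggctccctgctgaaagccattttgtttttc
It holds 43.3% G and C, against 56% in the window of Cox8a.

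The other subunits of complex IV passed only with the block or not at all. Cox4i1, the largest nuclear-coded subunit known to bind ATP as a regulator, had 15160, 14220 and 15070 in WT and 16740, 17190 and 17320 in KO. Its groups did not overlap, and KO exceeded WT by 0.21 ± 0.08 in log2 (adjusted p = 0.119, with the block 0.00155). Cox6c (0.25) likewise had no overlap, with an adjusted p of 0.108 and with the block 0.00106. Ndufa4 (0.23), Cox5b (0.26), Cox7a2 (0.21) and Cox5a (0.17) overlapped between genotypes but were higher in 3 of 3 pairs, with adjusted p-values from 8.22e-04 to 0.0445 with the block and from 0.199 to 0.658 without it. These values moved when single libraries were left out: without KO replicate 2 Cox5b had 0.087, and without WT replicate 2 it had 0.44, while Cox5a had 0.060 without WT replicate 3 and 0.30 without KO replicate 3. With the block and the trend on transcript length removed, Cox5a had 0.105 and no longer passed (adjusted p = 0.311). Ndufa4 (0.0122) and Cox5b (0.0120) still passed in that setting. Cox6a1, Cox6b1 and Cox7c had 0.18, 0.12 and 0.15 and passed neither test. Of these, Cox6a1 varied most between libraries, with an SE of 0.31, and had 0.017 without KO replicate 2 and 0.39 without KO replicate 3.

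**Figure D5:**
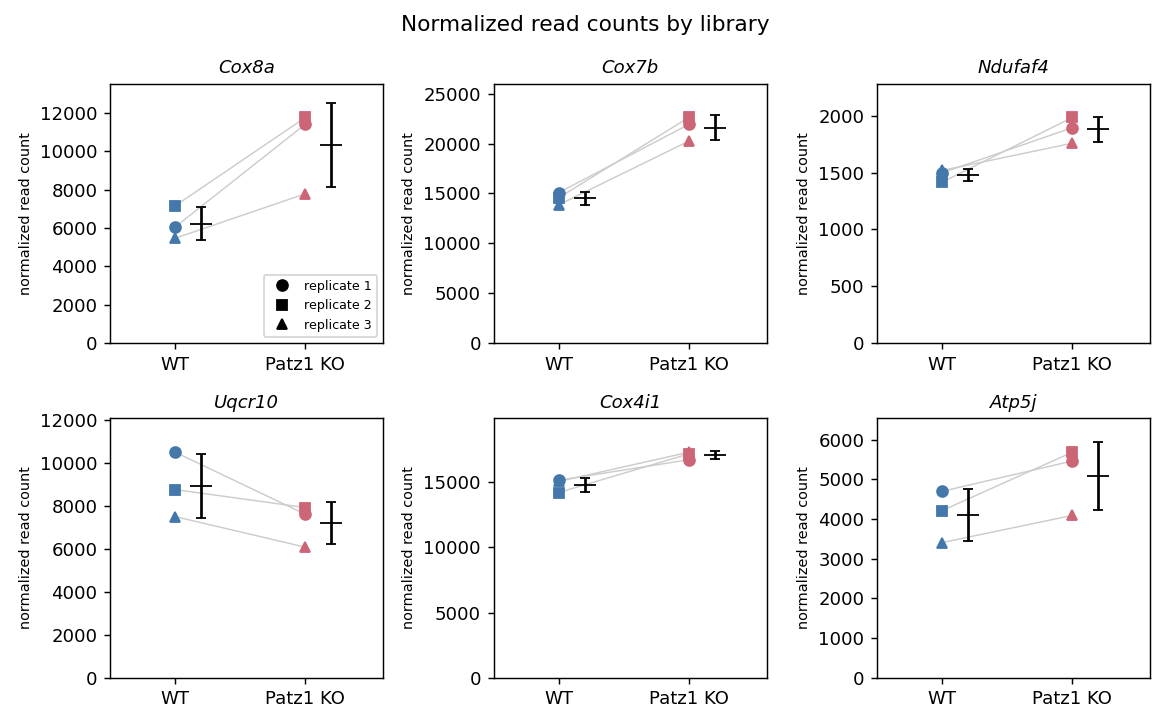
Normalized read counts (y axis, from 0) of 6 members in each library, WT on the left and KO on the right of each panel; symbols give the replicate, grey lines join replicates of the same number, and the black mark beside each group is its mean with SD (n = 3). Cox8a, Cox7b, Ndufaf4 and Cox4i1 have all KO libraries above all WT libraries, Atp5j is higher and Uqcr10 lower in KO within each pair, and replicate 3 is lowest in both genotypes for Cox8a, Cox7b, Uqcr10 and Atp5j.

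Complex V had a median log2 fold change of 0.16, with 13 of 15 subunits above 0. Without the block 0 passed by DESeq2, edgeR or limma, and 1 had an unadjusted p under 0.05. Its catalytic F1 part with the central stalk (Atp5a1, Atp5b, Atp5c1, Atp5d and Atp5e), called the head below, had a median of 0.14, and 0 of 5 passed with the block. The membrane part Fo and the peripheral stalk had 0.17, and 6 of 10 passed with the block, all higher in KO. Atp5j, coupling factor F6 of the peripheral stalk, had 4694, 4210 and 3403 in WT and 5459, 5680 and 4088 in KO, higher in 3 of 3 pairs and by 0.31 ± 0.14 on the log2 scale (adjusted p = 0.23, with the block 6.69e-05). It also passed without replicate 3 of both genotypes (0.00697) and without KO replicate 3 alone (0.0265). The other 5 were Atp5g3 of the c-ring (0.21), Atp5o, the oligomycin sensitivity protein (0.21), Atp5l (0.18), Atp5j2 (0.17) and Atp5f1 (0.16). Without WT replicate 3 Atp5j had 0.19 and Atp5o 0.10, without WT replicate 2 Atp5l had 0.11, and without KO replicate 2 Atp5f1 had 0.10. For the head, Atp5b had the highest normalized counts of all members, 47370, 45370 and 33640 in WT and 47550, 47970 and 34600 in KO, and Atp5a1 had 30420, 28840 and 24880 against 31370, 32460 and 28680. Both genes overlapped between genotypes, with adjusted p-values of 0.943 and 0.595. Of the head, Atp5d (0.17) and Atp5e (0.15) had all KO libraries above all WT libraries, as did 2 of the 10 other subunits, and with the block Atp5d, Atp5e and Atp5a1 had adjusted p-values of 0.0509, 0.055 and 0.06, which is just short of passing. With the block Atp5d passed once chromosome 11 and the X stretch from Pin4 on were centred (0.0492) and Atp5a1 once the trend on length was removed (0.0449). The difference between the head and the remainder of the complex was not tested.

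Complex I had a median of 0.09, with 31 of 35 subunits above 0. None was called by DESeq2, edgeR or limma, and 3 had an unadjusted p under 0.05. Its 7 nuclear-coded core subunits, which carry the flavin and the iron-sulfur clusters, had a median of 0.04, and 0 of 7 passed with the block. Ndufs1 had 0.04 (adjusted p = 0.905) and the NADH-binding Ndufv1 had -0.05 (0.901). Ndufv1 had 4731, 4658 and 4126 in WT and 4478, 4656 and 3916 in KO, so the genotypes overlapped. The 28 accessory subunits with counts had a median of 0.12. With the block, 5 of them passed, all higher: Ndufb2 (0.29), Ndufb11 (0.26), Ndufa1 (0.23), Ndufb4 (0.20) and Ndufb8 (0.18), with adjusted p-values from 0.00238 to 0.0322. Over all of complex I that is 14.3% called with the block, against 14.6% of all genes. Without WT replicate 3 Ndufb4 had 0.11 and Ndufb8 0.12, and without WT replicate 1 Ndufb2 had 0.16. Ndufb11 and Ndufa1 are on the X chromosome before Pin4. Ndufb11 had 1834, 1621 and 1662 in WT and 1980, 2034 and 2146 in KO, with no overlap. With the trend on transcript length removed, the median of complex I was 0.05, with 24 of 35 above 0.

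The called member of complex I was not a subunit. Ndufaf4 is an assembly factor that acts before the finished complex forms, on chr4:24898083-24905001 (GRCm38, plus strand). It had 1499, 1417 and 1520 normalized counts in WT and 1897, 1987 and 1760 in KO, and the groups did not overlap. The log2 fold change was 0.35 ± 0.10 (adjusted p = 0.01, with the block 2.02e-04). It passed with edgeR (0.0274) and limma (0.0282), but not when WT replicate 1 (0.0618), WT replicate 2 (0.151), KO replicate 1 (0.13) or KO replicate 2 (0.179) was left out, where its log2 fold change was 0.36, 0.32, 0.35 and 0.31. No other gene averaging 50 or more lay within 100 kb. Its start holds a match to the NRF1 letters GCGCATGCG, which overlap with their reverse complement in 1 run of capitals (RefSeq, GRCm38.p6, chr4:24897833-24898132, plus strand).
Ndufaf4 promoter: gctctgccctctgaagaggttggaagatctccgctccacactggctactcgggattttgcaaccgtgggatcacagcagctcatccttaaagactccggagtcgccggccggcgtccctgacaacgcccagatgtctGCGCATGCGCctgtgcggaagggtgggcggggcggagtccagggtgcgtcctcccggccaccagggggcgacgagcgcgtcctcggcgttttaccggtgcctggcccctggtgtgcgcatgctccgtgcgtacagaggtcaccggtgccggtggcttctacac
None of the other 7 factors of complex I among the members was called, and 4 of them, Ndufaf1, Ndufaf5, Ndufaf6 and Ndufaf7, had values below 0 (-0.13 to -0.04).

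Complex III had a median of 0.02, with 6 of 9 subunits above 0. By DESeq2, edgeR and limma 0 were called, with 2 at an unadjusted p under 0.05. Cytochrome c1 (Cyc1) had 4641, 4779 and 4022 in WT and 4801, 4809 and 3927 in KO, and Uqcrfs1 had 3044, 3086 and 2938 against 3090, 3120 and 2970. Both had a log2 fold change within 0.02 of 0 and overlapping groups. With the block Uqcrh, the hinge protein, was higher (0.19, adjusted p = 0.0133) and Uqcr10, a small subunit next to cytochrome c1, was lower. Uqcr10 was at 10510, 8768 and 7508 in WT and at 7615, 7929 and 6083 in KO. The genotypes overlapped, yet KO was lower in 3 of 3 pairs, and the difference was -0.31 ± 0.14 on the log2 scale (adjusted p = 0.185, with the block 1.18e-04). It also passed without the shallow replicate 3 of both genotypes (0.0226), without WT replicate 3 alone (0.0182) and with the trend on length removed (0.0104). Without WT replicate 1 its log2 fold change was -0.18. The median of complex III turned to -0.01 with that trend removed, and -0.06, -0.03 and -0.04 without WT replicate 3, KO replicate 1 and KO replicate 2.

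Uqcr10 is 1 of 4 members on chromosome 11, with Uqcrq, Atp5g1 and Atp5h, and all 4 had log2 fold changes below 0 (median -0.17, with -0.38 without WT replicate 3 and, at the other end, -0.036 without KO replicate 3, where 1 of the 4 was above 0). Patz1 is on chromosome 11 as well. Of 1260 genes of this chromosome tested, 14 were higher and 255 lower in KO, and the median of those averaging 50 or more was -0.26. Set to the same chromosome median in every library, which raises all genes of the chromosome by about the same amount, the 4 members had -0.01 (Uqcr10), 0.11 (Atp5g1), 0.14 (Uqcrq) and 0.17 (Atp5h). Atp5h then passed as higher in KO once the block was added (0.17, adjusted p = 0.0371), but with the trend on length removed and the block it passed as lower (-0.19, adjusted p = 0.0166). In that last setting Atp5g1 (-0.23, adjusted p = 9.22e-04) and Uqcrq (-0.22, adjusted p = 0.00413) passed as lower too. Atp5g1 had 17310, 16880 and 10020 in WT and 14010, 14790 and 10050 in KO, with WT replicate 3 far below the other WT libraries. Its adjusted p was 0.726, and 0.0252 without replicate 3 of both genotypes. Of the 3 c-ring genes, which code for the same mature protein, Atp5g2 and Atp5g3 on other chromosomes had 0.12 and 0.21 where Atp5g1 had -0.19. That value was -0.40 without WT replicate 3 and -0.032 without KO replicate 3, and Atp5h, at -0.13, had -0.27 without WT replicate 3 and -0.0021 without WT replicate 1.

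Complex II had a median of 0.08. Sdha, the flavoprotein, had 5929, 5623 and 5205 in WT and 6126, 6061 and 6009 in KO, with no overlap, and a log2 fold change of 0.12 ± 0.09 (adjusted p = 0.606). Sdhb, the iron-sulfur protein, had 0.12 ± 0.14, and the membrane anchors Sdhc and Sdhd had 0.01 ± 0.12 and 0.04 ± 0.10. None of the 4 passed with or without the block, by edgeR or by limma, or had an unadjusted p under 0.05. Without WT replicate 3 the median was -0.02.

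The isoforms that other tissues use in place of the common subunits were low. Per kb, Cox4i2, the lung form, had 41.6 against 21410 for Cox4i1, and Ndufa4l2 had 16.2 against 21490 for Ndufa4. Cox7b2 and Cox8c, known from testis, had 19.2 and 17.1. At such low counts their log2 fold changes were large but not called, with 0.94 for Ndufa4l2 (adjusted p = 0.421), -0.86 for Cox7b2 (0.646) and 0.71 for Cox8c (0.768), and Ndufa4l2 had 6.86, 11.3 and 13.7 normalized counts in WT and 16.4, 19.0 and 23.8 in KO, with no overlap. Cox8b of heart and muscle had 0 to 3 counts in every library, at or under the floor of 3 counts, so no fold is given, and Cox6a2 of muscle was listed at 0 in all 6. The exceptions were Cox6b2, with 1411 per kb against 12930 for Cox6b1, and Cox7a1, with 1133 against 12870 for Cox7a2. Cox7a1 had 601, 470 and 430 in WT and 410, 458 and 304 in KO. The groups overlapped, with a log2 fold change of -0.35 ± 0.18 (adjusted p = 0.288). The supercomplex factor Cox7a2l, related in sequence to Cox7a2, had 3923 per kb and 0.11 (adjusted p = 0.674). No isoform was called with or without the block, by edgeR or by limma, and 1 (Cox7a1) had an unadjusted p under 0.05.

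The genes around the chain were read from further lists. Of 31 assembly factors outside the symbol rule that were tested, 0 passed the DESeq2 Wald test, 6 had an unadjusted p under 0.05, and with the block 0 were higher and 6 lower: Ecsit, Nubpl, Ttc19, Cox10, Coa3 and Atpaf2. Of these 6, 4 (Ttc19, Cox10, Coa3 and Atpaf2) are on chromosome 11. With the block that is 19.4% of the list, against 14.6% of all genes, and the median of the list was -0.02. Of 10 genes of ubiquinone synthesis and cytochrome c, 0 passed without the block, with 1 at an unadjusted p under 0.05, and 1 with it. That was Cycs, cytochrome c itself, at 15380, 15830 and 17710 in WT and 17800, 19980 and 20680 in KO, with no overlap and 0.26 ± 0.10 on the log2 scale (adjusted p = 0.104, with the block 3.04e-05). Of 13 TCA cycle enzymes 0 passed, with 0 at an unadjusted p under 0.05, and Mdh2 alone with the block (0.16, adjusted p = 0.038). Of 11 regulators of respiratory genes 0 passed, with 1 at an unadjusted p under 0.05, and Tfam, which packages mitochondrial DNA, with the block (0.19, adjusted p = 0.0241). The activators Nrf1 (0.04) and Gabpa (-0.02) had overlapping groups, and Ppargc1a had at most 1.41 normalized counts in any library. The shares called with the block in these last 3 lists, 10%, 7.69% and 9.09%, were below that of all genes. By edgeR and limma too, 0 genes of these 4 lists and 3 members were called.

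Starts of the members were searched on both strands for 4 motifs, in windows of 300 bases. RefSeq listed 78 such windows for 73 of the 93 members. The NRF1 letters GCGCATGCG were in 10 of them (12.8%, against 1.75% of all promoters), and the YY1 letters AAGATGGCG in 7 (8.97%, against 1.4%). The YY1 letters began 23 to 36 bases after the start in 6 of the 7 (Ndufc1, Atp5j2, Ndufs7, Ndufa9, Ndufs6 and Ndufs4). The G-rich letters GGGAGGGG, of the kind that MAZ and PATZ1 bind, were in 4 (5.13%, against 12.2%). Of the 9 complex IV subunits with a window, Cox8a and Cox6a1 held any of the 4 motifs. A match is a string of letters and was not tested for binding.

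Some values rest on shared sequence or short transcripts. Of the 93 members, 12 had at least 1 annotated pseudogene copy of 95% identity or more over at least 50% of the transcript, with 8 for Atp5l, 3 each for Atp5h and Uqcrb, 2 for Atp5g2 and 1 each for the other 8, Atp5g1, Atp5o and Ndufb11 among them. Their counts are uncertain where reads could be split. The exons of 18 members overlapped a gene on the opposite strand, such as Gabpa for Atp5j, and whether reads were assigned by strand is not given in the sources used here. Over all genes the median log2 fold change was 0.10 for transcripts of up to 600 bases, 0.06 for 601 to 1000, 0.02 for 1001 to 2000 and 0.01 above. Of the 74 subunits, 22, 25, 22 and 5 fell in these classes, from short to long. With that trend removed, 55 of 74 subunits were above 0 and the median was 0.08, and 3 members were higher and 1 lower. With the block as well, 14 were higher and 5 lower.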

How the data were processed

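RNA-seq was deposited for 6 libraries, 3 WT and 3 Patz1 KO, as tables of raw counts per gene symbol. The authors mapped reads to mm10 and, per the labels, counted them with featureCounts 1.6.2; TopHat2 2.1.1, Bowtie2 2.3.1.0 and DESeq2 are also listed in the submitters' processing notes. Reads that map to several places are treated by such counters in ways not given in the sources used here, which can lower genes with near-identical copies. The members and gene lists, and the tests, were chosen with earlier results of these data known.

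Counts were tested with the two-sided Wald test of DESeq2 1.42.0 (R 4.3.3) over all genes, the test the study names, with the Benjamini-Hochberg adjustment and a threshold of 0.05; fold changes were not shrunken, and SE is that of the fit. Medians over genes used those with a mean normalized count of 50 or more. Alternatives were edgeR 4.0.16, limma 3.58.1, TMM size factors, a filter of 10 counts in 3 libraries, no independent filtering, the replicate block, fewer libraries, centring of chromosome 11 and of X from Pin4 on, and a lowess trend on transcript length. The pairing by replicate number rests on the data: deviations from the group means correlated at 0.469, 0.619 and 0.684 within the 3 pairs, over 11524 genes. Correlations between libraries with different replicate numbers were not computed. In all 15 pairs the libraries differed by more than counting noise (chi-square over its degrees of freedom 9.50 or more), so none was counted as a copy. By that measure KO replicate 1 was nearer to WT replicate 2 (33.55) than to WT replicate 1 (55.47). The tests were checked on simulated counts, with changes larger than those of the called members and without replicate, regional or length effects. That check does not cover smaller changes, or how the block, the centring and the length trend handle such effects.

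Positions and transcript lengths came from GENCODE M21 (GRCm38), which matched 23020 symbols, 1258 of them by an older symbol; the representative transcript of a gene was coding, of the best annotation class and then the shortest. Pseudogene copies were found with blastn 2.17.0. A floor of 3 counts was used for absent genes, which covers counting error only. Named were the called members, those on chromosome 11 or on X from Pin4 on, complex II, the 2 highest and 2 lowest subunits per kb of the other complexes, chosen core subunits, paralog groups, called genes of the other lists and Patz1; all other genes named in the report were chosen after their values were seen. For 1 member that enters the counts and medians, values of its own are not reported here.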

Additional observations from a re-analysis of the deposited data

How the results depend on the processing

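The number of members called was 3, with a range of 2 to 4 when 1 library was left out and 2 to 4 with another tool, scaling, filter, region centring or length correction. Over all genes the count was 1146, with 583 to 1341 when 1 library was left out. The number of members was 6 (4 higher, 2 lower) without replicate 3 of both genotypes and 22 with the replicate block. It was 22 with the block and the regions centred, and 19 with the block and the length trend removed. Over all genes these settings called, in the same order, 1332, 2131, 1659 and 2141, so the pairing raised the count over all genes too. The medians of complexes I, IV and V stayed above 0 in all 17 settings, with 0.03 to 0.15, 0.19 to 0.29 and 0.11 to 0.19 when a library was left out, while complex II ran from -0.02 to 0.13 and complex III from -0.06 to 0.10. For the 53 named members with counts, 795 of 900 values kept direction and side of the threshold, 61 newly passed, 6 no longer passed and 38 changed direction, and the cause was not tested. With the regions centred, without and with the block, Atp5g1 had 0.11 and 0.12, Atp5h 0.17 and 0.17 and Uqcrq 0.14 and 0.15. With the length trend removed, without and with the block, Uqcrb had -0.048 and -0.046, Uqcrfs1 -0.0087 and -0.0075 and Cyc1 -0.0085 and -0.0075. Without replicate 3 of both genotypes, Sdhc had -0.0049, Sdhd -0.015 and Cox6b2 0.019. Cox6b2 had 0.0019 with limma. Leaving out 1 library at a time gave -0.35 to 0.020 for Uqcrq, -0.017 to 0.21 for Sdhb, -0.073 to 0.0825 for Sdhc, -0.023 to 0.10 for Sdhd, -0.079 to 0.19 for Ndufa7, -0.0062 to 0.13 for Ndufa10, -0.11 to 0.15 for Uqcrb, -0.0031 to 0.040 for Uqcrfs1, -0.10 to 0.18 for Atp5b, -0.11 to 0.020 for Ndufv1, -0.061 to 0.10 for Cyc1, -0.012 to 0.20 for Cox6b1 and -0.11 to 0.11 for Cox6b2. With no change of direction it gave 0.0017 to 0.11 for Ndufs1, 0.068 to 0.16 for Sdha, 0.075 to 0.18 for Atp5g2, 0.055 to 0.20 for Atp5a1, 0.074 to 0.40 for Ndufab1, 0.011 to 0.17 for Uqcrc2, 0.060 to 0.15 for Cox7a2l and -0.47 to -0.19 for Cox7a1. Shallow depth in replicate 3 limits the isoforms, whose counts there were at most 10 for Cox4i2 and fewer for Ndufa4l2, Cox7b2, Cox8b and Cox8c.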
